A study of Homo sapiens with 8 samples.

Results

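The BCL2 family decides whether a cell keeps its mitochondria intact or enters apoptosis, and 10 of its genes were followed here by symbol in both deposited tables. They were 4 anti-apoptotic genes (BCL2, MCL1, BCL2L1 and BCL2L2), the 2 effectors BAX and BAK1, and 4 genes of the BH3-only class (BCL2L11, BID, BBC3 and BAD). All 10 were among the 13068 genes listed in both tables, and all 10 passed the filter on low values that left 12939 genes for testing. The rule takes them by symbol and holds no measured value, although it was written with earlier results of these data known.

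Sorted cells gave the RNA. Their labels name the line KG-1a, which was established from a human acute myeloid leukaemia, and the cell type leukemia stem cell. The cells had received a lentiviral short hairpin RNA, either a control (shCTL, genotype label WT) or one against NYNRIN (shNYNRIN, genotype label NYNRIN-knockdown), with 4 libraries in each group. The libraries were deposited as 2 tables, here set 1, with replicates 1 and 2 of both groups, and set 2, with replicates 3 and 4. Values are read as FPKM, fragments scaled by gene length and by library depth. No label names a drug treatment, so all values describe cells without venetoclax, and the labels do not say how many hairpins or clones were used or whether replicates were separate cultures. What the p-values weigh is then only how far these libraries lie apart, and that can be technical.

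Anti-apoptotic family members hold back the effectors BAX and BAK, which otherwise open the outer mitochondrial membrane and release cytochrome c. BH3-only proteins carry a short helix that fits a groove on the anti-apoptotic proteins, and some of them also activate BAX and BAK directly. Venetoclax is a small molecule that takes the place of that helix in the groove of BCL2 and binds the related proteins MCL1 and BCL-xL (the product of BCL2L1) far less. High MCL1 or BCL-xL is a known route to venetoclax resistance in acute myeloid leukaemia. These processes act between proteins, and the values here are RNA levels.

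The library shCTL replicate 3 was deposited as whole numbers. Of 830 genes with 0.5 to 0.9 FPKM both in shCTL replicate 4 and in shNYNRIN replicate 3, it has 763 at 0, so its values read as FPKM cut to the whole number below. It is printed as deposited and stayed out of means and tests, so set 2 rests on 1 control library. NYNRIN itself fell in both sets, from 12.3 ± 0.183 to 7.14 ± 0.226 FPKM in set 1 (SD, n = 2 each) and from 10.4 to 2.84 ± 0.00856 FPKM in set 2 (limma adjusted p = 0.000984 and 0.000119). TXNIP, which the study's title names, was at 80.6 and 77.9 FPKM with shCTL and at 138.7 and 140.6 FPKM with shNYNRIN in set 1, and at 95.4 FPKM against 103.2 and 101.4 FPKM in set 2. The markers did not all match the label. CD34, a defining marker of KG-1a and of leukaemia stem cells, lay between 0.681 and 1.79 FPKM in the 7 libraries with decimals. Some other progenitor markers were high, with GATA2 reaching 244.4, MYB 94.7, SPN 79.8 and KIT 34.4 FPKM. Others were absent or nearly so. In the libraries of set 2 with decimals MPO was listed at 0 and CD38 reached no more than 0.0286 FPKM. PROM1 and FLT3 were in neither table. The 6 of 10 progenitor markers in both tables summed to between 366 and 467 FPKM. Erythroid transcripts were present too, with EPB42 reaching 105.7 FPKM and SLC4A1 no more than 0.0986 FPKM. The 9 of 10 erythroid markers in both tables summed to between 236 and 283 FPKM. Of 10 monocyte markers 3 were in both tables and 1 rose in each set. That was LYZ, which reached 14.4 FPKM (limma adjusted p = 0.00942 and 0.0205), while CD14 reached no more than 0.095 FPKM. Of 10 T-cell markers CD4 alone was in both tables, reached 18.4 FPKM and rose in set 2 (limma adjusted p = 0.0347), while CD3D reached no more than 0.0213 FPKM. The part of these markers in the results was not tested. The values below therefore describe the cells as labelled, with low CD34, some of the other progenitor transcripts and erythroid transcripts.

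MCL1 was the most abundant of the 10 transcripts and BCL2, the venetoclax target, was the least abundant in each of the 7 libraries with decimals. MCL1 RNA lay between 96.3 and 144.7 FPKM, and BCL2 RNA between 1.83 and 2.92 FPKM. BCL2L1 followed MCL1 at 65.8 to 76.6 FPKM, then came BAX at 40.4 to 48.4 FPKM and BID at 28.4 to 34.2 FPKM. The ranges of these first 4 genes did not overlap, and each was above the next in 7 of 7 libraries. The next 5 genes had ranges that overlapped from one to the next. BAK1 (11.5 to 16.5 FPKM) and BCL2L11 (12.1 to 14.7 FPKM) did not differ beyond their spread, with BAK1 the higher in 4 of 7 libraries. BCL2L11 was above BCL2L2 (9.99 to 12.3 FPKM) in 7 of 7 libraries. BCL2L2 was above BBC3 (6.90 to 12.3 FPKM) in 5 of 7, and BBC3 above BAD (7.37 to 9.28 FPKM) in 5 of 7. BAD and BCL2 were apart. Among the 12939 genes tested the median level of MCL1 stood at percentile 97.3 and that of BCL2 at percentile 21.0.

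Of the summed RNA of the 4 anti-apoptotic genes, BCL2 made up between 0.80% and 1.53% in the 7 libraries with decimals. MCL1 made up 60.3% and 60.7% in the shCTL libraries of set 1 and 51.3% and 56.2% in the shNYNRIN libraries of the same set. In set 2 the MCL1 share was 62.5% in shCTL replicate 4 and 63.2% and 63.6% in the shNYNRIN libraries. The MCL1 share was thus lower in both shNYNRIN libraries of set 1 and did not show that drop in set 2. BCL2L1, whose product BCL-xL is known for keeping erythroid precursors alive, supplied 32.8% and 32.7% in the shCTL libraries of set 1 and 40.8% and 35.8% in its shNYNRIN libraries.

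**Figure D1:**
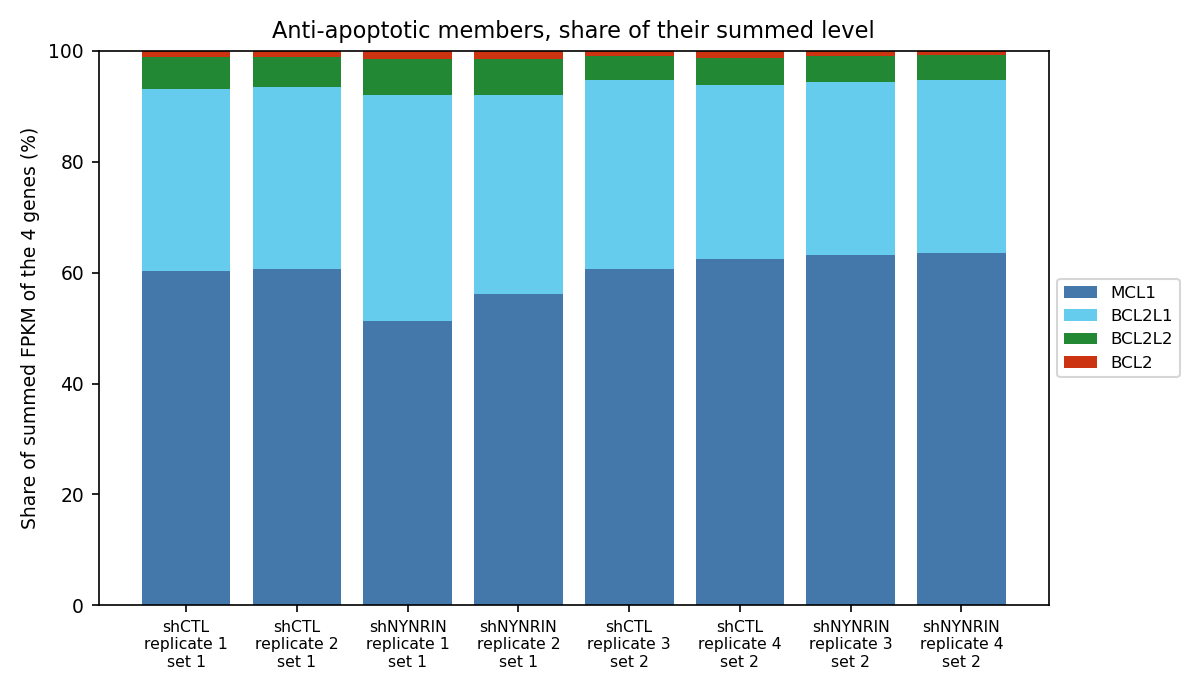
Share of the summed FPKM of the 4 anti-apoptotic genes that each gene supplied, in percent, 1 bar for each library. BCL2 is the thin top segment, at most 1.53% in any library, and the MCL1 segment is shortest in shNYNRIN replicate 1, at 51.3%.

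To ask whether the hairpin against NYNRIN went with other levels of the family, log2(FPKM + 1) was compared within each set by limma, with the p-value adjusted over all 12939 genes and a threshold of 0.05. On that scale the pseudocount of 1 makes the fold change of a low gene such as BCL2 too small. In set 1 MCL1 and BBC3 fell and BAK1, BCL2L11 and BID rose. In set 2 BCL2 fell and BAK1 rose. MCL1, BBC3 and BCL2 had opposite signs in the 2 sets, and for all 3 the difference between the sets passed. BAK1, BCL2L11 and BID were higher in every shNYNRIN library than in every shCTL library with decimals, a pattern that 10.7% of all genes had. With shCTL replicate 3 as deposited, BID overlapped.

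Set 1 had 3 members higher and 2 lower of 10, where 9.33% and 6.61% of all genes were called higher and lower, 15.9% in all. Before adjustment 6 of 10 were under 0.05, as were 32.4% of all genes. A q-value under 0.05 in the authors' deposited table is given for 6 of 10 members and 19.9% of its genes. With upper-quartile scaling the split of all genes in set 1 moved from 1207 higher and 855 lower to 807 and 1173, and that of the members to 2 and 2. In set 2 a single member was higher and another lower, 2 of 10, where 11.6% and 8.71% of all genes were (20.3% in all), so the members' share was at the background. The difference between the sets passed for 3 of 10 members, 2 of them higher and 1 lower in set 2, and for 20.4% of all genes (10.3% of all genes higher). At an unadjusted p under 0.05 it was the same number of members and 34.5% of all genes. Opposite signs in the sets, seen in 3 of 10 members, were found in 50.6% of all genes, and together with a difference that passed in 16.8%. The median log2 fold change of the 10 genes was 0.085 in set 1 and 0.089 in set 2, against 0.026 and 0.018 over all genes. Without shCTL replicate 1 or shCTL replicate 2, which leaves set 1 with 1 control library, 1 and 0 members passed in set 1, while the calls over all genes fell to 611 and 626. Leaving out shNYNRIN replicate 3 leaves set 2 with 1 library in each group. The log2 fold changes there were then -0.47 for BCL2 and 0.25 for BAK1. With all 7 libraries 3 of 10 had a p under 0.05 before adjustment in set 2, as did 34.2% of all genes.

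**Figure D2:**
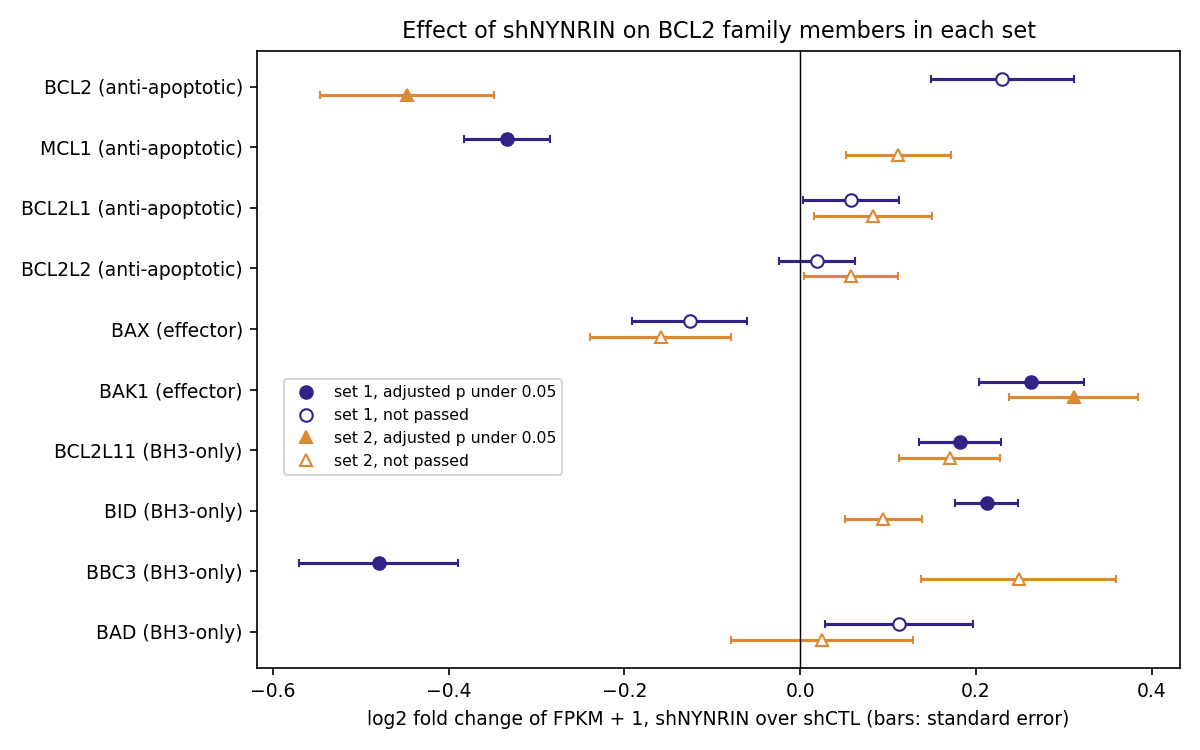
Log2 fold change of FPKM + 1 (shNYNRIN over shCTL) of each gene, with its standard error, in set 1 (circles) and set 2 (triangles). Filled symbols passed a limma adjusted p of 0.05. BAK1 is right of 0 and filled in both sets, while BCL2, MCL1 and BBC3 lie on opposite sides of 0.

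BCL2 (ENSG00000171791) occupies 63123346 to 63320128 of chromosome 18 (GRCh38, GENCODE 29, minus strand), and its product is the founding anti-apoptotic member. In set 1 BCL2 was at 2.34 and 2.26 FPKM in the shCTL libraries and at 2.84 and 2.90 FPKM in the shNYNRIN libraries. In set 2 BCL2 was at 2.92 FPKM in shCTL replicate 4 and at 1.93 and 1.83 FPKM in the shNYNRIN libraries, with shCTL replicate 3 listed at 2. Both shNYNRIN libraries were above both controls in set 1 and below both in set 2. How many of all genes have groups apart within a set was not counted, for BCL2 or for the members below. The BCL2 log2 fold change was 0.23 (SE 0.081) in set 1 and did not pass (limma adjusted p = 0.103), and was -0.45 (SE 0.099) in set 2 and passed (limma adjusted p = 0.0226). In the authors' deposited table, which covers set 1, BCL2 has a log2 fold change of 0.29 and a q-value of 0.0311, with a mean normalized count of 747. The sets differed by -0.68 in the BCL2 effect (limma adjusted p = 0.0134). The BCL2 call in set 2 was lost without shNYNRIN replicate 3 or shNYNRIN replicate 4 (limma adjusted p = 0.0756 and 0.0985) and with shCTL replicate 3 included as deposited (limma adjusted p = 0.217). With 0.5 added to that library the BCL2 log2 fold change in set 2 was -0.36 and passed (limma adjusted p = 0.0205). The difference between the sets was lost without shNYNRIN replicate 4 (limma adjusted p = 0.0525) and with shCTL replicate 3 as deposited (limma adjusted p = 0.119).

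MCL1 (ENSG00000143384) occupies 150574551 to 150579738 of chromosome 1 (minus strand), and its protein is short-lived, so that it follows new RNA closely. In set 1 MCL1 was at 126.4 and 129.5 FPKM with shCTL and at 96.3 and 106.6 FPKM with shNYNRIN. In set 2 MCL1 was at 131.3 FPKM in shCTL replicate 4 and at 139.4 and 144.7 FPKM with shNYNRIN, with shCTL replicate 3 listed at 125. The groups were apart in both sets, in opposite directions, a pattern that was not counted over all genes. MCL1 fell in set 1 by 0.33 on the log2 scale (SE 0.049, limma adjusted p = 0.00836). In set 2 its log2 fold change was 0.11 (SE 0.060) and did not pass (limma adjusted p = 0.245). With shCTL replicate 3 as deposited it was 0.15 and passed (limma adjusted p = 0.0460), and with 0.5 added to that library it was 0.14 and did not (limma adjusted p = 0.0523). The whole numbers as deposited also moved the median of all genes in set 2 from 0.018 to 0.072. For MCL1 the set 2 effect exceeded the set 1 effect by 0.45 (limma adjusted p = 0.0101), a difference that passed in each of 14 alternatives. Leaving out shCTL replicate 2 ended the call in set 1 (limma adjusted p = 0.0531).

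BCL2L1 (ENSG00000171552, minus strand of chromosome 20, 31664452 to 31723989) makes BCL-xL. BCL2L1 was at 68.7 and 69.9 FPKM with shCTL and at 76.6 and 67.9 FPKM with shNYNRIN in set 1. In set 2 BCL2L1 was at 65.8 FPKM in shCTL replicate 4 and at 68.7 and 70.8 FPKM with shNYNRIN, with shCTL replicate 3 listed at 70. The groups overlapped in set 1, and shCTL replicate 3 lay within the shNYNRIN range of set 2. The log2 fold changes of BCL2L1 were 0.058 (SE 0.055) and 0.083 (SE 0.067), and neither passed (limma adjusted p = 0.514 and 0.440). BCL2L2 (ENSG00000129473, plus strand of chromosome 14, 23298790 to 23311759), which makes the related guardian BCL-w, had log2 fold changes of 0.019 (SE 0.044) and 0.058 (SE 0.053) that did not pass (limma adjusted p = 0.801 and 0.505). BCL2L2 was lower in set 2 than in set 1 in both groups, at 9.99 to 10.5 FPKM against 11.8 to 12.3 FPKM.

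BAK1 (ENSG00000030110, minus strand of chromosome 6, 33572547 to 33580293) encodes BAK, the effector that sits in the outer mitochondrial membrane. BAK1 was at 11.5 and 12.3 FPKM with shCTL and at 14.8 and 14.2 FPKM with shNYNRIN in set 1. In set 2 BAK1 was at 12.5 FPKM in shCTL replicate 4 and at 16.5 and 15.0 FPKM with shNYNRIN, with shCTL replicate 3 listed at 12. All 4 shNYNRIN libraries were above all shCTL libraries. BAK1 rose by 0.26 on the log2 scale in set 1 (SE 0.060, limma adjusted p = 0.0304) and by 0.31 in set 2 (SE 0.073, limma adjusted p = 0.0269), and 1.39% of all genes rose in both sets by this test. For BAK1 the set 2 effect exceeded the set 1 effect by 0.048 (SE 0.094, limma adjusted p = 0.765). In set 1 BAK1 no longer passed when either shCTL replicate 1 or shCTL replicate 2 was left out (limma adjusted p = 0.136 and 0.0716), nor when shNYNRIN replicate 1 or shNYNRIN replicate 2 was (0.0972 and 0.0589), and in set 2 the call was lost without shNYNRIN replicate 3 (limma adjusted p = 0.109).

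BAX (ENSG00000087088, plus strand of chromosome 19, 48954815 to 48961798) encodes the effector that moves to mitochondria when activated. BAX was at 46.7 and 43.8 FPKM with shCTL and at 42.0 and 40.8 FPKM with shNYNRIN in set 1. In set 2 BAX was at 48.4 FPKM in shCTL replicate 4 and at 46.3 and 40.4 FPKM with shNYNRIN, with shCTL replicate 3 listed at 45. The groups were apart in set 1, and shCTL replicate 3 lay between the shNYNRIN libraries of set 2. The BAX log2 fold changes were -0.13 (SE 0.065) and -0.16 (SE 0.080), and neither passed (limma adjusted p = 0.233 and 0.217).

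BCL2L11 (ENSG00000153094, plus strand of chromosome 2, 111119378 to 111168447) encodes BIM, a BH3-only protein that binds every anti-apoptotic member and can activate BAX and BAK. BCL2L11 was at 13.3 and 12.4 FPKM with shCTL and at 14.7 and 14.6 FPKM with shNYNRIN in set 1. In set 2 BCL2L11 was at 12.1 FPKM in shCTL replicate 4 and at 13.9 and 13.6 FPKM with shNYNRIN, with shCTL replicate 3 listed at 12. All shNYNRIN libraries were above all shCTL libraries. BCL2L11 rose by 0.18 on the log2 scale in set 1 (SE 0.047, limma adjusted p = 0.0438). In set 2 its log2 fold change was 0.17 (SE 0.057) and did not pass (limma adjusted p = 0.0832), but it passed with shCTL replicate 3 included as deposited (0.18, limma adjusted p = 0.0245) or with 0.5 added to it (0.15, limma adjusted p = 0.0411). In set 1 BCL2L11 no longer passed without shCTL replicate 1 or shCTL replicate 2 (limma adjusted p = 0.0697 and 0.197) or without any 1 of the 4 shNYNRIN libraries (limma adjusted p = 0.107, 0.0940, 0.0852 and 0.0849 for replicates 1 to 4). It also no longer passed with upper-quartile scaling or quantile normalization (limma adjusted p = 0.0820 and 0.0693).

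BID (ENSG00000015475, minus strand of chromosome 22, 17734138 to 17774770) links death receptors to mitochondria once caspase-8 has cut it. BID was at 28.4 FPKM in both shCTL libraries and at 33.5 and 32.6 FPKM with shNYNRIN in set 1. In set 2 BID was at 31.4 FPKM in shCTL replicate 4 and at 34.2 and 32.9 FPKM with shNYNRIN. ShCTL replicate 3, listed at 33, lay among the shNYNRIN libraries. BID rose by 0.21 on the log2 scale in set 1 (SE 0.036, limma adjusted p = 0.0126), and in set 2 its log2 fold change was 0.094 (SE 0.044) and did not pass (limma adjusted p = 0.183). The BID call in set 1 was lost without shCTL replicate 1 or shCTL replicate 2 (limma adjusted p = 0.0651 and 0.0697).

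BBC3 (ENSG00000105327, minus strand of chromosome 19, 47220822 to 47232766) encodes PUMA, a BH3-only protein that rises in many forms of cell stress. BBC3 was at 11.4 and 10.6 FPKM with shCTL and at 8.43 and 6.90 FPKM with shNYNRIN in set 1. In set 2 BBC3 was at 9.80 FPKM in shCTL replicate 4 and at 12.3 and 11.3 FPKM with shNYNRIN, with shCTL replicate 3 listed at 10. As for MCL1, the shNYNRIN libraries were below the controls in set 1 and above them in set 2. BBC3 fell by 0.48 on the log2 scale in set 1 (SE 0.091, limma adjusted p = 0.0177). In set 2 the BBC3 log2 fold change was 0.25 (SE 0.11) and did not pass (limma adjusted p = 0.168), and that effect exceeded the one in set 1 by 0.73 (limma adjusted p = 0.0151). The BBC3 call in set 1 was lost without shCTL replicate 1 or shCTL replicate 2 (limma adjusted p = 0.0882 and 0.0627), and the difference between the sets without shNYNRIN replicate 3 (limma adjusted p = 0.0532). The sum of the 6 progenitor markers in both tables also fell in set 1, from 427 and 431 to 366 and 367 FPKM. In set 2 that sum went up, from 399 FPKM to 466 and 467 FPKM. GATA2, which reached 244.4 FPKM, weighed most in it. By limma 3 of the 6 fell and 0 rose in set 1, where 6.61% and 9.33% of all genes did. In set 2, 4 rose and 1 fell, where 11.6% and 8.71% of all genes did. CD34 went against the sum, at 0.25 on the log2 scale in set 1, which did not pass, and -0.69 in set 2, which did. The part of these markers in the MCL1 and BBC3 values was not tested.

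BAD (ENSG00000002330, minus strand of chromosome 11, 64269830 to 64284704) binds BCL2 and BCL-xL unless growth factor signalling keeps it phosphorylated. BAD was at 8.37 and 7.37 FPKM with shCTL and at 9.28 and 7.92 FPKM with shNYNRIN in set 1, and between 7.71 and 7.88 FPKM in the 3 libraries of set 2 with decimals. The groups overlapped in set 1, and the 3 libraries of set 2 differed by less than the pairs of set 1. The BAD log2 fold changes were 0.11 (SE 0.085) and 0.025 (SE 0.10), and neither passed (limma adjusted p = 0.408 and 0.898). BAD had the fewest counts behind it, a mean of 370 in the authors' deposited table, where MCL1 had 20271.

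The sequences before the RefSeq start of 3 members are shown because BAK1 and BCL2L11 were higher with shNYNRIN in both sets and BBC3 went opposite ways. They are from RefSeq (GRCh38.p14), on the strand of the gene, 5′ to 3′, and start 250 bases before the start that RefSeq gives. For BCL2L11 that start lies inside the span given above, which GENCODE opens at an earlier first exon, so its stretch is upstream of the RefSeq start and within an intron of that GENCODE transcript. Bases annotated as untranslated in GENCODE 29 were left off at the 3′ end. The promoter table held 8 of the 10 members, with no entry for MCL1 and BCL2L2. Both strands were searched. Capitals mark matches to a GC box, spelled GGGCGG, and to a CCAAT box, spelled CCAAT. They also mark an E-box, spelled CACGTG, and an AP-1 site, spelled TGANTCA. An EGR1 site is spelled GCGNGGGCG. The cyclic AMP response element, spelled TGACGTCA, and the CArG box were searched too. BAK1 is shown at chr6:33580294-33580526 (minus strand), BCL2L11 at chr2:111120664-111120913 (plus strand) and BBC3 at chr19:47232767-47232917 (minus strand).
BAK1: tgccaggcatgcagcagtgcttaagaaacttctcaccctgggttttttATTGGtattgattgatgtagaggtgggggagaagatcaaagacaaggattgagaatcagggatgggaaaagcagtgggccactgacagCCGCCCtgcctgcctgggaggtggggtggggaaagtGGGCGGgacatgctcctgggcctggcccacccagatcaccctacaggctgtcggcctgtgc
BCL2L11: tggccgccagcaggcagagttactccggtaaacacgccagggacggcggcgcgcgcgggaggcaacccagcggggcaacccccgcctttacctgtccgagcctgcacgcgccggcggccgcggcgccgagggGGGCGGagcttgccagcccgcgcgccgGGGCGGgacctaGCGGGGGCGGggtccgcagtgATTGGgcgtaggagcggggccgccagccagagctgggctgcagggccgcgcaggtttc
BBC3: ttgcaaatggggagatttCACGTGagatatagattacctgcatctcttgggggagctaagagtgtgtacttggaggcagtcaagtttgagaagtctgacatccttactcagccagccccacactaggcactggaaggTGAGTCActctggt

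The BAK1 stretch of 233 bases held 2 GC boxes and 1 CCAAT box, motifs found in 40.4% and 30.9% of the 35116 promoters of the table over the same length. The BCL2L11 stretch was rich in G and C, at 76.8%, and held 3 GC boxes, 1 CCAAT box and 1 EGR1 site, which overlaps the last GC box. An EGR1 site was found in 8.41% of all promoters over 250 bases. The BBC3 stretch of 151 bases held 1 E-box and 1 AP-1 site, found in 3.01% and 3.80% of all promoters over that length. The element TGACGTCA and the CArG box had 0 matches in all 3 stretches. These matches describe the letters of the sequence and say nothing of binding in these cells.

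A single effect fitted to both sets passed for 0 of 10 members by limma, where 0.317% of all genes passed (0.193% higher, 0.124% lower). At an unadjusted p under 0.05 there were 4 members (BAK1, BAX, BCL2L11 and BID) and 18.7% of all genes. NYNRIN itself, at -1.05 on the log2 scale, did not pass for the single effect (limma adjusted p = 0.0612), and nor did TXNIP (limma adjusted p = 0.118). With shCTL replicate 3 included, as deposited or with 0.5 added, 1 of 10 members passed as higher. The calls over all genes then rose too, as given further below. In an alternative added after the data were seen, the separate effects of both sets were averaged. There BAK1, BID and BCL2L11 rose, by 0.29, 0.15 and 0.18 on the log2 scale (limma adjusted p = 0.00983, 0.0144 and 0.0219), and 17.8% of all genes passed (10.7% higher, 7.08% lower). BAK1, BCL2L11 and BID were also the 3 of 10 members whose shNYNRIN libraries all lay above all 3 shCTL libraries with decimals, a pattern that 10.7% of all genes had. The opposite pattern had 0 of 10 members and 5.51% of all genes. With shCTL replicate 3 as deposited, BID overlapped and BAK1 and BCL2L11 did not.

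The balance of the family was read as ratios of FPKM within each library, which have no test here. The summed anti-apoptotic level over the summed pro-apoptotic level was 1.75 and 1.86 with shCTL and 1.53 and 1.62 with shNYNRIN in set 1. In set 2 that ratio was 1.72 in shCTL replicate 4 and 1.68 and 1.88 with shNYNRIN, and 1.72 from the whole numbers of shCTL replicate 3. The ratio was lower in both shNYNRIN libraries of set 1, and in set 2 the shNYNRIN libraries lay on both sides of the controls. In set 1 the log2 ratio changed by -0.20, which is 2.40 times the spread between replicates (0.081, pooled SD of the log2 ratio), and in set 2 by 0.045. With geometric means, in which each gene weighs the same, the changes were -0.011 in set 1 and -0.22 in set 2, so the set with the lower ratio differed between sums and geometric means. The drop in set 1 came with a lower anti-apoptotic sum, 210 and 213 FPKM with shCTL and 188 and 190 FPKM with shNYNRIN. The pro-apoptotic sum was 120 and 115 FPKM with shCTL and 123 and 117 FPKM with shNYNRIN in set 1. Without MCL1 in the sum, the change in set 1 was 0.031, less than the spread of that ratio (0.071).

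MCL1 over BCL2, BCL2 over BAX and BCL2 over BBC3 went in opposite directions in the sets by more than the spread. So did BCL2 over BCL2L11, with log2 changes of 0.12 in set 1 and -0.82 in set 2 against a spread of 0.033. BCL2 over BAK1 overlapped in set 1 and was lower with shNYNRIN in set 2. MCL1 RNA was 54.0 and 57.3 times the BCL2 RNA in the shCTL libraries of set 1 and 33.9 and 36.7 times with shNYNRIN. In set 2 MCL1 over BCL2 was 44.9 in shCTL replicate 4 and 72.2 and 79.1 with shNYNRIN, with 62.5 from the whole numbers of shCTL replicate 3. The lowest MCL1 over BCL2 ratios were thus in the shNYNRIN libraries of set 1 and the highest in those of set 2. BCL2 over BAX was 0.0501 and 0.0515 with shCTL and 0.0675 and 0.0712 with shNYNRIN in set 1, and 0.0605 against 0.0417 and 0.0453 in set 2. BCL2 over BAK1 was 0.204 and 0.183 with shCTL and 0.192 and 0.205 with shNYNRIN in set 1. In set 2 BCL2 over BAK1 was 0.234 in shCTL replicate 4 and 0.117 and 0.122 with shNYNRIN. BCL2 over BBC3 was 0.205 and 0.212 with shCTL against 0.337 and 0.421 with shNYNRIN in set 1, and 0.298 against 0.156 and 0.161 in set 2. Since BCL2 was listed at 2 in shCTL replicate 3, which stands for 2 to 3 FPKM, that library cannot place the set 2 ratios with any precision.

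Among other ratios, MCL1 over BAX (log2 change -0.21 in set 1 and 0.27 in set 2, spread 0.14) also had opposite signs. The anti-apoptotic sum over the effectors had them too (-0.13 and 0.14, spread 0.10). The changes of MCL1 over BBC3 (0.196 and -0.159) also differed in sign, but neither exceeded its spread (0.200), and its groups overlapped in set 1. Ratios with the same direction in both sets included BAK1 over BAX and MCL1 over BAK1. They also included BCL2L1 over BAX (0.19 and 0.25, spread 0.12) and MCL1 over BCL2L11 (-0.53 and -0.071, spread 0.090). BAK1 over BAX was 0.246 and 0.282 with shCTL and 0.352 and 0.348 with shNYNRIN in set 1. In set 2 BAK1 over BAX was 0.258 in shCTL replicate 4, 0.267 in shCTL replicate 3 as deposited, and 0.357 and 0.372 with shNYNRIN. Every shNYNRIN library thus had more BAK1 per BAX than every shCTL library, with log2 changes of 0.41 and 0.50 against a spread of 0.084. This ratio was added to those first chosen. It sets BAK1, called higher in both sets, over BAX, whose log2 fold changes were -0.13 and -0.16, so it restates those levels. How many other pairs of genes part in this way was not counted. MCL1 over BAK1 was at least 10.5 in both shCTL libraries and 6.51 and 7.52 with shNYNRIN in set 1, and 10.5 against 8.45 and 9.62 in set 2. That ratio was below the controls in all 4 shNYNRIN libraries, and its log2 change was -0.62 in set 1 and -0.22 in set 2 against a spread of 0.12.

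Of 13 other family genes 7 were measured in both tables. In set 1, 3 of the 7 rose and 0 fell, where 9.33% and 6.61% of all genes did. In set 2, 2 of the 7 rose and 1 fell, where 11.6% and 8.71% of all genes did. BCL2L12, a family member with roles outside the mitochondria, was at 29.2 and 29.9 FPKM with shCTL and at 34.8 and 36.2 FPKM with shNYNRIN in set 1. In set 2 BCL2L12 was at 30.4 FPKM in shCTL replicate 4 and at 37.2 and 37.4 FPKM with shNYNRIN. BCL2L12 rose in both sets, by 0.26 and 0.29 on the log2 scale (limma adjusted p = 0.00703 and 0.00621). BCL2L13, a mitophagy receptor, rose by 0.20 in set 1 (limma adjusted p = 0.0237) and was at 0.11 in set 2. PMAIP1, which makes the MCL1-binding BH3-only protein NOXA, was between 31.2 and 33.8 FPKM in 5 libraries with decimals and at 38.5 and 41.9 FPKM with shNYNRIN in set 2, where it rose by 0.36 (limma adjusted p = 0.00654). BNIP3, a mitophagy receptor induced by hypoxia, rose by 0.36 in set 1, from 22.4 and 21.2 FPKM to 27.5 and 28.9 FPKM. In set 2 BNIP3 fell by 1.03, from 51.8 FPKM in shCTL replicate 4 to 25.2 and 24.7 FPKM, with shCTL replicate 3 listed at 49. The controls of set 2 stood above all other libraries in BNIP3. BCL2A1, another anti-apoptotic gene, stayed at or below 1.64 FPKM, and BIK and HRK were listed at 0 in the libraries of set 2 with decimals.

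Of 10 other genes of mitochondrial apoptosis, among them caspases and VDAC2, 2 rose in set 1 and 1 fell in set 2, where 9.33% and 8.71% of all genes did. CYCS, the gene of cytochrome c, rose by 0.17 in set 1 and fell by 0.21 in set 2 (limma adjusted p = 0.0140 and 0.00954), and its effects differed between the sets (limma adjusted p = 0.00287). Of 19 measured regulators 2 rose and 3 fell in set 1, where 9.33% and 6.61% of all genes did. In set 2, 4 of the 19 rose and 5 fell, where 11.6% and 8.71% of all genes did. ATF4 fell by 0.36 in set 1 and rose by 0.22 in set 2, the same directions as MCL1 and BBC3 had. Opposite signs in the sets with a difference that passed were found in 16.8% of all genes. DDIT3, a stress factor below ATF4 that can induce BCL2L11 and BBC3, rose by 0.33 in set 2, had a log2 fold change of -0.10 in set 1 that did not pass, and differed in effect between the sets (limma adjusted p = 0.0214). The part of ATF4 and DDIT3 in the values of the members was not tested. E2F1 fell by 0.56 in set 2, where its log2 fold change in set 1 was -0.029.

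Of 13 genes listed for their part in the response to venetoclax, 12 were measured, and 1 rose and 1 fell in set 1, where 9.33% and 6.61% of all genes did. In set 2 a single gene rose and 2 fell, where 11.6% and 8.71% of all genes did. Besides PMAIP1, described above, these included SLC25A1, the mitochondrial citrate carrier, which rose by 0.24 in set 1 (limma adjusted p = 0.0291), and TFDP1, the partner of E2F factors, which fell by 0.13 in set 2 (limma adjusted p = 0.0355). CLPB and OPA1, which shape the mitochondrial cristae, did not pass in either set, with log2 fold changes of 0.094 and -0.013 in set 1 and 0.16 and 0.097 in set 2.

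**Figure D3:**
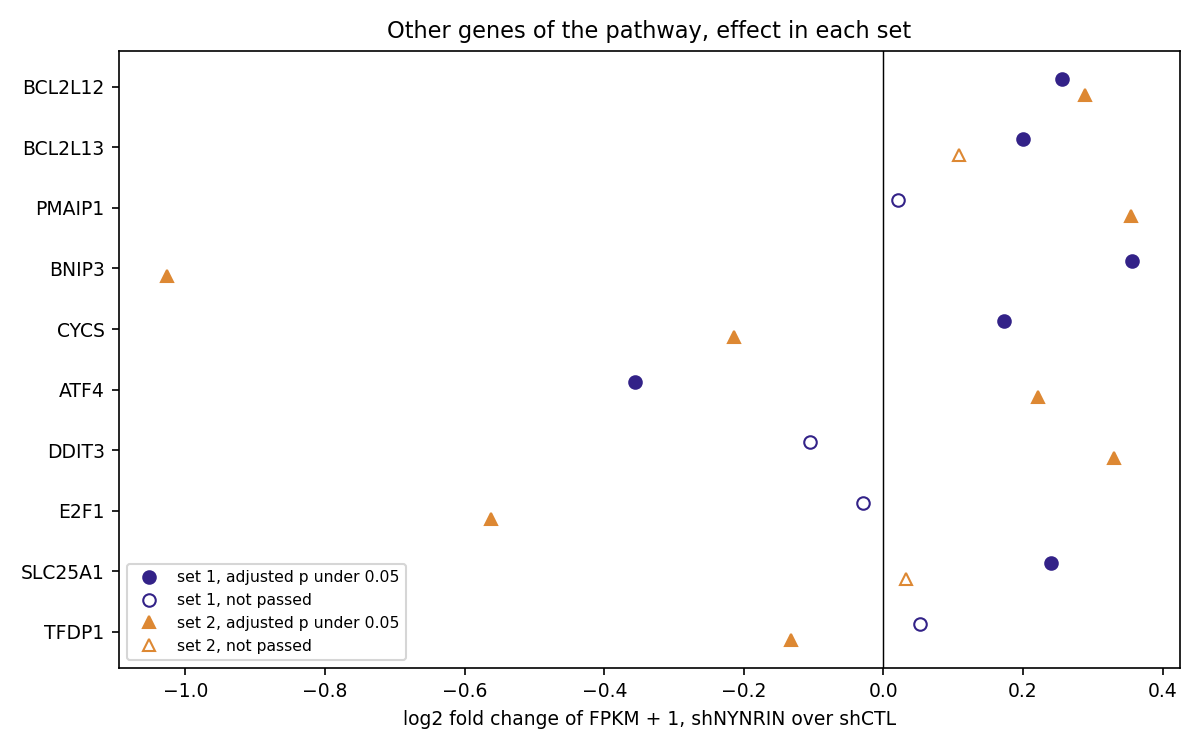
Log2 fold change of FPKM + 1 (shNYNRIN over shCTL) of 10 other pathway genes in set 1 (circles) and set 2 (triangles), filled where the limma adjusted p was under 0.05. BCL2L12 is filled right of 0 in both sets, and BNIP3 lies at 0.36 in set 1 and at -1.03 in set 2.

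Over the 7 libraries with decimals, genes whose log2(FPKM + 1) went most like that of BCL2 included CCT3 (Pearson r = 0.996), HMGB3 (0.992), MRPS31 (0.991) and HMGB2 (0.983), out of 5418 genes of at least 10 FPKM in every one of these libraries. The 7 points share their sets and groups, and with 5418 genes compared over 7 libraries high values are found easily, so this is a description.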

How the data were processed

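RNA was extracted from sorted cells and made into libraries with a template-switching kit for low input (SMART-Seq v4), per the labels. Bowtie 0.12.9, Cufflinks 2.1.1 and HTSeq are in the submitters' processing notes, which also name the builds mm10 and hg38 without saying what each was for. The sources used here do not give the annotation or the strand setting, and the kit does not keep the strand. BCL2L1 shares 43.0% of its exonic bases with ABALON, BAD 23.7% with GPR137, BCL2L2 19.4% with BCL2L2-PABPN1 and BCL2L11 10.9% with MIR4435-2HG, so these values can hold reads of those genes. Each deposited column was matched to its sample by the library name in the labels.

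For 7 libraries the scale of the deposited values is that of FPKM. ShCTL replicate 3 was deposited in whole numbers, entered as a score in the list of units, and read as FPKM cut down wherever it is printed or included. The value 0.001 stands for 0 in the first table. In that table the authors' mean of normalized counts is a signal that sums to 38529983. It is followed by a log2 fold change computed by the authors, and a p-value with its q-value, also by the authors. The depth of each library is unknown, so no counting interval is attached. From the steps between low values, relative depth in set 2 was 1.33 for shNYNRIN replicate 3 and 1.29 for shNYNRIN replicate 4, with shCTL replicate 4 as the unit.

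Genes had to reach 1 FPKM in 2 or more of 7 libraries. Their log2(FPKM + 1) was tested two-sided in R 4.3.3 by limma 3.58.1, whose variance prior followed the mean, with Benjamini-Hochberg adjustment. A model of group, table and their interaction gave the effects within the sets and the difference (3 residual degrees of freedom), so the spread of the lone control of set 2 is borrowed from the other groups. The single effect came from the additive model (4 residual degrees of freedom). The fit was tested on simulated data. Alternatives were another pseudocount, filters, scalings, shCTL replicate 3, replicate blocks and each replicate left out. Ratios used FPKM without a pseudocount.

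The members, the gene lists and the tests were chosen with earlier results of these data known. All 10 members were named whatever their values. From each other list up to 4 genes with the largest log2 fold change past the threshold were named, and CLPB, OPA1, BCL2A1, BIK and HRK were added after their values were seen. The ratio of BAK1 over BAX was also added to the ratios first chosen. Some genes that this rule names are not reported here.

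The library names carry numbers too, and for shCTL they are not those of the titles. Libraries with the same library-name number had correlated deviations from their group means (r = 0.101, 0.141, 0.154 and 0.147 over 5852 genes of a mean of at least 10 FPKM). The highest r with another number was 0.183, 0.144, 0.142 and 0.163, above that with the own number for 3 of the 4. These pairs span both tables, so r also carries the difference between the sets. Within a set the library-name numbers differ between the groups, and number and group cannot be told apart there.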

Additional observations from a re-analysis of the deposited data

Results flagged for a closer look

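The effect of shNYNRIN on 3 members differed between the sets by limma. The log2 fold change of BCL2 in set 2 minus that in set 1 was -0.68 (limma adjusted p = 0.0134), with 0.23 in set 1 and -0.45 in set 2. For MCL1 the difference was 0.45 (limma adjusted p = 0.0101), with -0.33 and 0.11. For BBC3 the difference was 0.73 (limma adjusted p = 0.0151), with -0.48 and 0.25. An opposite sign together with a difference past the threshold was found for 16.8% of all genes. NYNRIN was reduced more in set 2 than in set 1, and the sets also differ in table, in library-name numbers and in the number of control libraries with decimals, which cannot be told apart here.

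BAD stood at 9.28 FPKM in shNYNRIN replicate 1, while the rest of its group lay between 7.83 and 7.92 FPKM. Chance flags about 1 in 20 groups by this measure, and both groups of all 10 members were looked at.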

How the results depend on the processing

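Of the member values recomputed under alternatives, 527 kept their direction and their side of the threshold, 30 lost a call, 13 gained one and 22 changed sign. Most of these values had no call to lose, so the 527 says little of the calls. In set 1 the call was kept in 14 of 15 alternatives for MCL1, 13 for BBC3, 12 for BID, 10 for BAK1 and 6 for BCL2L11. In set 2 it was kept in 12 of 14 for BAK1 and 9 of 13 for BCL2. The difference between the sets kept its call in 14 of 14 for MCL1, 13 of 14 for BBC3 and 10 of 13 for BCL2. The changes of sign were in values that had not passed. BCL2L2 in set 1 was -0.016 with upper-quartile scaling and -0.0034 with quantile normalization, and BAD in set 2 was -0.013 with quantile normalization and -0.038 with 0.5 added to shCTL replicate 3. The difference between the sets was 0.0033 for BCL2L11 with upper-quartile scaling. With shCTL replicate 3 as deposited it was -0.019 for BCL2L1 and 0.018 for BAX, and with 0.5 added -0.024 and 0.011. Left-out replicates gave -0.028 to 0.14 for BCL2L1 in set 1 and -0.12 to 0.23 for BCL2 over both sets, where 0.23 came without shCTL replicate 4 and is then the effect in set 1 alone, as set 2 has no other control with decimals. For the difference between the sets they gave -0.060 to 0.11 for BCL2L1, -0.13 to 0.063 for BAX, -0.015 to 0.11 for BAK1, -0.058 to 0.035 for BCL2L11 and -0.19 to 0.015 for BAD.

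The numbers of genes past the threshold with each replicate left out ranged from 611 to 2088 in set 1, 1170 to 2975 in set 2, 1429 to 2590 for the difference and 0 to 2088 over both sets, where 2088 came without shCTL replicate 4 and is again the effect in set 1 alone. The low counts came without shCTL replicate 1 or shCTL replicate 2 in set 1 (611 and 626), without shNYNRIN replicate 3 or shNYNRIN replicate 4 in sets 1 and 2 (1236 and 1248, 1196 and 1170), and without shNYNRIN replicate 3, shNYNRIN replicate 4 or shCTL replicate 2 for the difference (1476, 1429 and 1749). Over both sets 0 remained without any one library but shCTL replicate 4, with 1803 to 2071 genes at an unadjusted p under 0.05. Over both sets there were 41 genes (25 higher, 16 lower), 88 with genes of at least 10 FPKM, 8 (4 and 4) with quantile normalization, 29 (10 and 19) with upper-quartile scaling, 356 and 452 with shCTL replicate 3 as deposited and with 0.5 added, and 2304 for the averaged effect. In set 1 quantile normalization gave 925 higher and 965 lower genes. Without shCTL replicate 4 the effect in set 2 and the difference could not be fitted. The log2 ratio of the summed levels was -0.011 in set 1 and -0.22 in set 2 from geometric means, and 0.031 in set 1 without MCL1. Geometric means weigh BCL2 like MCL1.

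With a replicate block by the numbers in the titles 627 genes passed in set 1, 630 in set 2, 838 for the difference and 0 over both sets, where 1305 had an unadjusted p under 0.05. Within the sets, differences between same-group libraries correlated at -0.0367 and -0.0386, so the title numbers did not pair the libraries. With that block MCL1 and BBC3 passed in set 1 and for the difference, and 0 other members passed, with BAK1 at -0.015 for the difference. With a block by the library-name numbers 0 genes passed over both sets, where 2188 had an unadjusted p under 0.05, MCL1 was at 0.000067 and BCL2L2 at -0.030, and no member's call changed.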
